A study of Mus musculus with 2 samples.

Results

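Cadherins and non-clustered protocadherins are membrane proteins whose extracellular repeats bind the same or a related protein on the neighbouring cell in the presence of calcium. Classical cadherins of type I and type II anchor actin through β-catenin and α-catenin, whereas the δ-protocadherins (δ-1 and δ-2) lack the catenin-binding tail and regulate cell sorting, migration and contact between neurons. In the developing pituitary, stem cells (SCs) line the cleft and the parenchyma as an epithelium, and the endocrine cells that arise from them leave it, so that the adhesion genes of each cell state can be compared side by side.

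The members are the 35 genes, of 31055 features in the count tables, whose symbol is Cdh or Pcdh followed by a number, with or without a final x. They comprise 5 type I cadherins, 12 type II cadherins, the divergent classical cadherin *Cdh5*, 5 atypical cadherins, 4 δ-1, 5 δ-2 and 3 other protocadherins. All values come from cells with GFP sorted from Sox9iresGFP/+ pituitaries at postnatal day 3 (P3), 3 pooled male pituitaries in 1 droplet library and 3 pooled female pituitaries in another. The allele reports *Sox9*, a gene of pituitary SCs, and the GFP protein is stable, so that cells which have lately switched the gene off can still be sorted with the SCs. Sex and library cannot be told apart here, and no test between the sexes was made.

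After the study's filters and a minimum of 2000 unique molecular identifiers (UMIs, 1 per captured RNA molecule), 7769 male and 5615 female cells remained, with median depths of 11321 and 9877 UMIs. The minimum removed 25.4% of the filtered male cells and 1.68% of the female cells. The libraries shared 19 barcodes. Cells were assigned from raw UMIs of marker genes that are not members. Stem cells (1730 male, 1839 female) had at least 2 UMIs of *Sox2* and 1 of *Sox9*, none of *Lef1* or *Pou1f1*, fewer than 20 of *Cga* and of *Pomc*, and fewer than 10 of 4 mesenchymal genes (*Dcn* and 3 collagen genes). They were not free of hormone RNA, with *Pomc* at 141 and 46.6, *Gh* at 92.8 and 177 and *Cga* at 30.0 and 8.45 UMIs per 1000000 in male and female stem cells, whose part in the results was not tested. Differentiating cells (673 and 513) had *Sox2* together with at least 2 UMIs of *Lef1*, a transcription factor of the WNT pathway, under the same limits for the other markers. Gonadotrophs (453 and 39) were taken by at least 20 UMIs of *Cga* with *Nr5a1*, *Gnrhr*, *Lhb* or *Fshb*, Pou1f1-lineage cells (730 and 275) by 2 of *Pou1f1*, melanotrophs (244 and 120) by 20 of *Pomc* with *Pax7* or *Pcsk2*, and mesenchymal cells (589 and 304) by 10 of the 4 mesenchymal genes. The female gonadotroph class, with 39 cells, gave the least precise values. No class was assigned to 42.3% of male and 44.8% of female cells.

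Genes that were not used in the assignment had, over whole classes, the distribution that the class names imply. *Foxl2*, a gonadotroph transcription factor, had a level of 239 CPM (UMIs of the gene per 1000000 UMIs of the class) in male and 240 in female gonadotrophs. It was at 73.2 and 59.5 CPM in differentiating cells and at 1.92 and 0.425 in stem cells. In the Pou1f1 lineage *Gh* was at 19931 and 36376 CPM, against 92.8 and 177 in stem cells. This *Gh* lay mainly in the 72 male and 34 female cells with at least 20 *Gh* UMIs, where it took 14.1% and 21.5% of UMIs. In the 593 and 230 cells with fewer than 10 UMIs of both *Prl* and *Gh* it took 0.00477% and 0.00479%. That was below the 0.00928% and 0.0177% of stem cells, so most cells of the class are not marked by *Gh*. *Oacyl* was at 646 and 614 CPM in melanotrophs and no higher than 4.86 in any other class. *Tcf21* reached 687 and 569 CPM in mesenchymal cells, and *Hes1*, a Notch target of SCs, 935 and 1709 in stem cells. The differentiating class had 320 and 276 CPM of *Smoc2*, against 7.18 and 7.46 in stem cells.

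Of the 35 members, 10 reached 20 CPM in at least 1 class in both libraries and are described below with both values. All 10 had their highest level in the same class in both libraries. *Cdh26* and *Pcdh7* were highest in stem cells, as was *Cdh2* as long as hormone RNA was counted in the totals, *Pcdh19* in differentiating cells, *Pcdh9* in the Pou1f1 lineage, *Pcdh17* in melanotrophs, and *Cdh5*, *Cdh10*, *Cdh11* and *Pcdh18* in mesenchymal cells. None of the 10 was highest in gonadotrophs. A further 16 members had their highest level between 5.21 and 23.3 CPM, and 9 stayed at or under 4.74 CPM in every class, among them *Cdh16* with no UMI. In the comparisons between classes, UMIs were summed per class and library and fitted with edgeR, and 29 members had enough counts in at least 1 class to be tested. A gene is called higher or lower where its adjusted p was under 0.05, its change at least 2-fold and its direction the same in both libraries. The fold changes are log2 values ± SE from this fit, in which all classes share 1 estimate of the spread, and comparisons that use the same class share its samples.

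**Figure D1:**
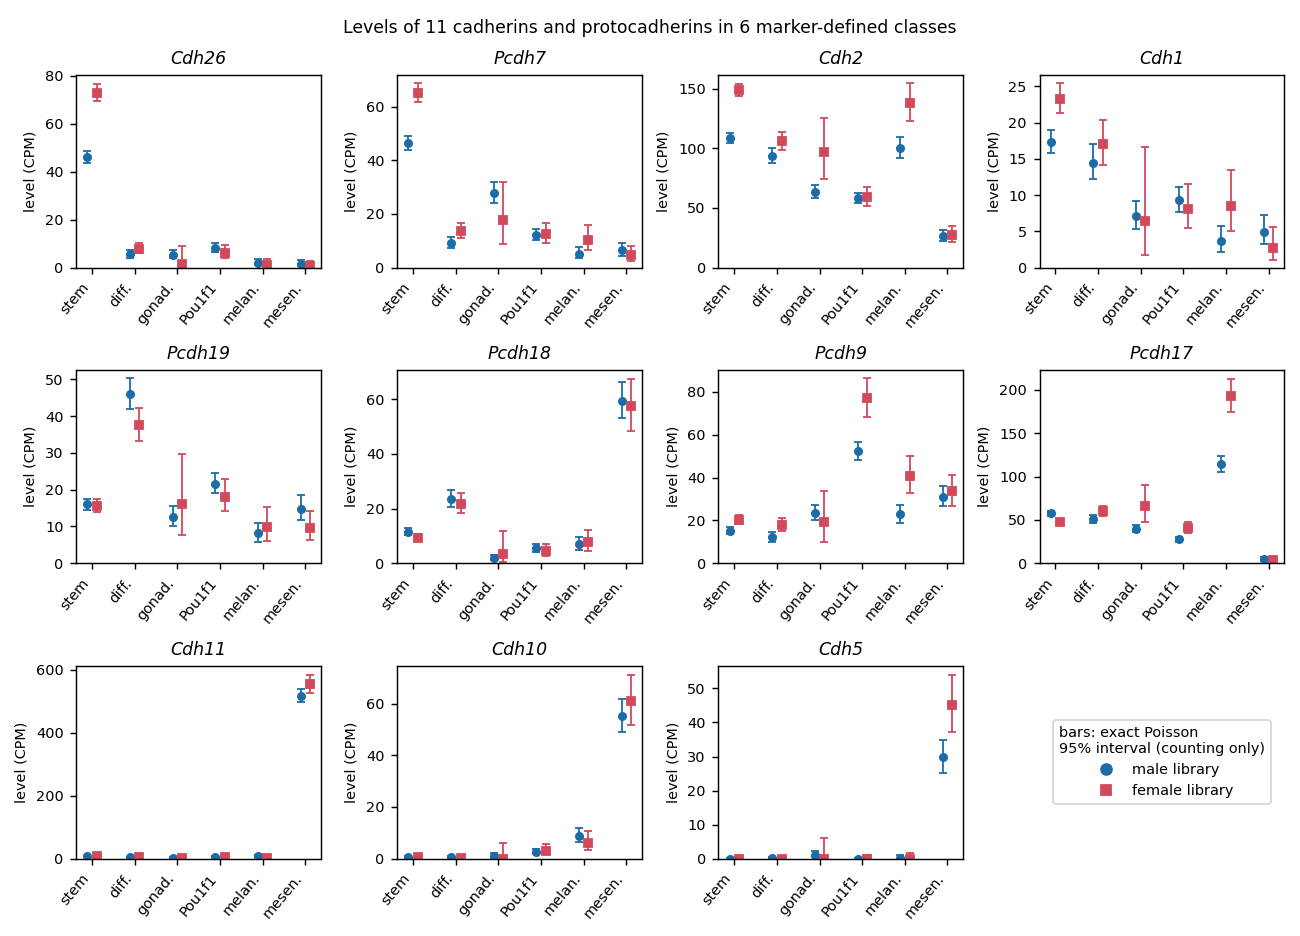
Level (CPM, linear axes from 0) of the 10 described members and Cdh1 in 6 classes, with male cells as blue circles and female cells as red squares and bars for exact Poisson 95% intervals, which cover counting error only. Cdh26 stands at 46.2 and 73.0 CPM in stem cells and under 10 elsewhere, and Cdh11 at 518 and 555 in mesenchymal cells and under 10 elsewhere.

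Of the 35 members, 6 were higher and 6 lower in differentiating than in stem cells, where 7.36% of all 14559 genes tested were higher and 15.3% lower. Among the described members, *Cdh26* and *Pcdh7* were lower and *Pcdh19* and *Pcdh18* higher. *Cdh26*, an atypical cadherin of epithelia, stood at 46.2 CPM in male and 73.0 in female stem cells and at 5.55 and 7.97 in differentiating cells, a log2 change of -3.09 ± 0.20 (adjusted p = 3.51e-09). *Pcdh7*, a δ-1 protocadherin, stood at 46.5 and 65.1 CPM in stem cells and at 9.22 and 13.7 in differentiating cells (-2.25 ± 0.16, adjusted p = 1.34e-08). In contrast, *Pcdh19*, a δ-2 protocadherin that acts together with N-cadherin, was at 16.0 and 15.6 CPM in stem cells and 45.9 and 37.5 in differentiating cells (1.44 ± 0.12, adjusted p = 6.04e-08). *Pcdh18*, another δ-2 protocadherin, was at 11.5 and 9.39 CPM and at 23.6 and 21.8 (1.15 ± 0.13, adjusted p = 1.51e-06). For each of these 4 genes, both stem values lay on the same side of both differentiating values. The median log2 change was -0.26 over the 24 members with at least 20 UMIs in the classes compared, and 0.00 over all genes with as many.

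Sequences just upstream of their annotated starts are shown because these 4 genes move in pairs (RefSeq, GRCm38.p6, transcribed strand, 5′ to 3′, at most 250 bases, with bases inside the GENCODE gene taken off). Capitals mark CTTTGA, the core bound by TCF/LEF factors, or GGGCGG, the GC box, on either strand, which do not overlap each other.
Cdh26, chr2:178430265-178430514, plus strand: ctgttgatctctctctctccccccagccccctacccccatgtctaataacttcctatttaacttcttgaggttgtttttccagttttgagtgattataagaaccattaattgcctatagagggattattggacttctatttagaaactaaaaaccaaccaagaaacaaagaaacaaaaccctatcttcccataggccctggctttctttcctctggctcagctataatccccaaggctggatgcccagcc
Pcdh7, chr5:57717831-57717966, plus strand: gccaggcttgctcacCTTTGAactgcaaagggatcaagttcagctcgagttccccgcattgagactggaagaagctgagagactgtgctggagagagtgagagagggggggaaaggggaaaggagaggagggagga
Pcdh19, chrX:133688994-133689243, minus strand: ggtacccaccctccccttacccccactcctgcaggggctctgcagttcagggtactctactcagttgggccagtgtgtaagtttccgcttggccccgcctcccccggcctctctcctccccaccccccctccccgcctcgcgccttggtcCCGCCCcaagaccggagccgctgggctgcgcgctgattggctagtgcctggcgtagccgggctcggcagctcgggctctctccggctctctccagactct
Pcdh18, chr3:49757326-49757566, minus strand: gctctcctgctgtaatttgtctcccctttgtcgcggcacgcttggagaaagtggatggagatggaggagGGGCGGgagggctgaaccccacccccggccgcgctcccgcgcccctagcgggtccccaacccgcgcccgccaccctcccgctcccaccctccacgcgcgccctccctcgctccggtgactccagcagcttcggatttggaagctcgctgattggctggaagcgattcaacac

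Over the whole 250-base windows, *Cdh26* had 42.8% GC and no CpG, whereas *Pcdh19* had 69.2% GC and 16 CpG and *Pcdh18* 68% GC and 23 CpG. *Pcdh7* lay between them with 58.4% GC and 7 CpG. The medians of all 32851 windows were 52.4% GC and 6 CpG. CTTTGA was in 13.8% of all windows, GGGCGG in 32.7%, and CACCTG, the E-box bound by SNAI and ZEB factors, in 17.2%. Of the 22 members with at least 1 window, 9 held GGGCGG in any of them (40.9%), 2 held CTTTGA and 2 held CACCTG. A member with several windows, such as *Cdh7*, counts once here, so these counts are not like the shares of windows. None of the windows of *Cdh26*, *Pcdh7*, *Pcdh19* and *Pcdh18* held CACCTG. A match describes these letters only.

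Low members that were called are named here and below because they were called, so after their values were seen. *Pcdh10* (1.59 and 1.56 CPM in stem cells, 10.8 and 5.60 in differentiating cells) and *Cdh22* (1.11 and 0.614, then 5.75 and 4.06) were higher, as were *Cdh7* and *Pcdh20*, both at most 1.69 CPM in differentiating cells. *Pcdh1*, *Cdh12*, *Cdh6* and *Pcdh8* were lower. The call of *Pcdh8* was lost with DESeq2 (adjusted p = 0.111) and with stricter gates (adjusted p = 0.0679), and that of *Cdh12* with looser gates, where its log2 change was -0.92.

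Neither E-cadherin, the main classical cadherin of epithelia, nor N-cadherin, known from neural and mesenchymal tissue, was called at this step. *Cdh2* (N-cadherin) was at 108 and 149 CPM in stem cells and 93.9 and 106 in differentiating cells, a change of -0.31 ± 0.10 that passed the p threshold (adjusted p = 0.0181) but not the 2-fold limit. *Cdh1* (E-cadherin), described although it stayed under the 20 CPM limit in the male library, was at 17.3 and 23.3 CPM and at 14.5 and 17.1 (-0.32 ± 0.17, adjusted p = 0.131). After each cell was thinned to 5000 UMIs, both genes were detected in 3.06% of male and 4.48% of female stem cells, beside products of the single shares of 2.66% and 5.24%. The share with both was above the product in the male and below it in the female library. *Cdh2* alone was detected in 35.9% and 44.7% of stem cells and *Cdh1* alone in 3.78% and 6.19%.

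Within *Sox2*-positive cells outside the endocrine and mesenchymal gates, these members were ordered by *Lef1*. In cells with 0, 1, 2, 3 to 4, and 5 or more *Lef1* UMIs, *Cdh26* was at 43.2, 15.9, 8.87, 3.91 and 2.89 CPM in the male library and at 68.1, 20.6, 13.9, 4.39 and 2.43 in the female library. *Pcdh7* went from 43.0 to 5.37 CPM in the male and from 61.5 to 9.74 in the female library between the first and last bins. *Pcdh19* went the other way, from 16.8 to 62.7 and from 16.3 to 44.6 CPM. A single *Lef1* UMI already separated the cells, with *Pcdh19* at 27.7 and 31.4 CPM. *Pcdh18* went from 11.8 to 24.4 and from 9.94 to 32.5 CPM, and in the male library its highest value was in the bin of 3 to 4 UMIs (27.9). *Cdh2* had no such course, with 105 and 140 CPM in the first bin, 73.7 and 104 in the second, and 107 and 124 in the last. There were 144 male and 80 female cells in the last bin. The bins are a description, and deeper cells have more *Lef1* UMIs. The bins with 2 or more *Lef1* UMIs are the cells of the differentiating class, and the first bin includes those of the stem class. The bins thus restate in part the comparison above and are no separate support for it.

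**Figure D2:**
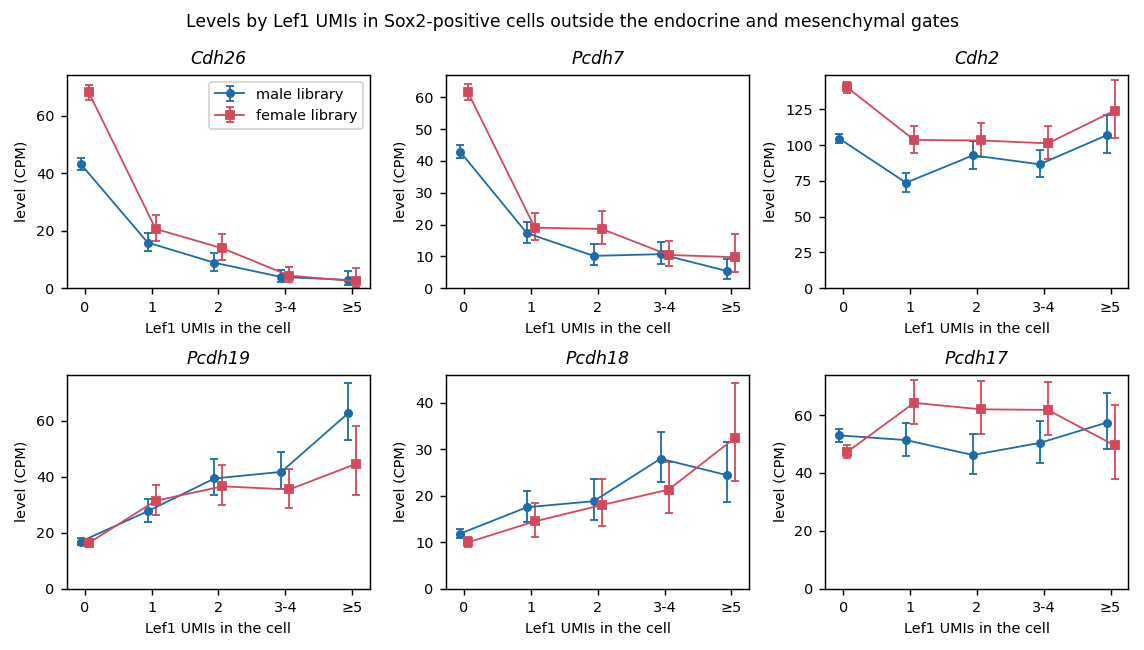
Level (CPM, linear axes from 0) of 6 members by the number of Lef1 UMIs in the cell, in the male (blue circles) and female (red squares) library, with exact Poisson 95% intervals. Cdh26 and Pcdh7 are lowest where Lef1 is high, Pcdh19 and Pcdh18 are higher there, and Cdh2 and Pcdh17 have no steady course.

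The stem class was not uniform for its members. The *Ednrb*-positive cells (at least 2 UMIs), known as the SCs of the cleft, had more *Cdh26*, *Pcdh7* and *Cdh2* than the *Aldh1a2*-positive cells (at least 2 UMIs, with none of *Ednrb*) known as those of the anterior lobe. *Cdh26* was at 61.7 and 88.2 CPM in the first and 34.0 and 51.7 in the second, *Pcdh7* at 56.8 and 74.7 against 38.9 and 53.4, and *Cdh2* at 128 and 167 against 92.8 and 127. *Pcdh17*, a δ-2 protocadherin that gathers on axons and at synapses in the brain, had the reverse order, with 41.1 and 29.1 CPM in *Ednrb*-positive and 74.3 and 73.3 in *Aldh1a2*-positive cells. Of 1730 male stem cells 450 were *Ednrb*-positive and 796 *Aldh1a2*-positive in this sense, and of 1839 female stem cells 778 and 568 were. All 3 members were also higher over the whole female class. Within each of the 2 subclasses, the male values were also below the female ones.

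Proliferating stem cells, with 2 or more UMIs of *Mki67* and *Top2a*, had less *Pcdh17* (41.0 and 29.3 CPM) than stem cells with none (70.5 and 57.6). A split by both features, added after the values were seen, placed the high level in a single combination. *Pcdh17* was at 90.5 and 87.1 CPM in *Aldh1a2*-positive cells without cycle genes, 45.0 and 32.5 in those with them, and 40.3 and 31.4 in *Ednrb*-positive cells without them. In *Aldh1a2*-positive cells *Cdh26* was at 34.0 and 52.1 CPM without cycle genes and 31.0 and 55.5 with them, where the counting intervals overlapped. In *Ednrb*-positive cells it was at 78.9 and 96.6 CPM without cycle genes and lower, at 51.3 and 72.0, with them, beyond the counting intervals in both libraries. Cells of 1 library are not replicates, so these subclass values carry no test.

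**Figure D3:**
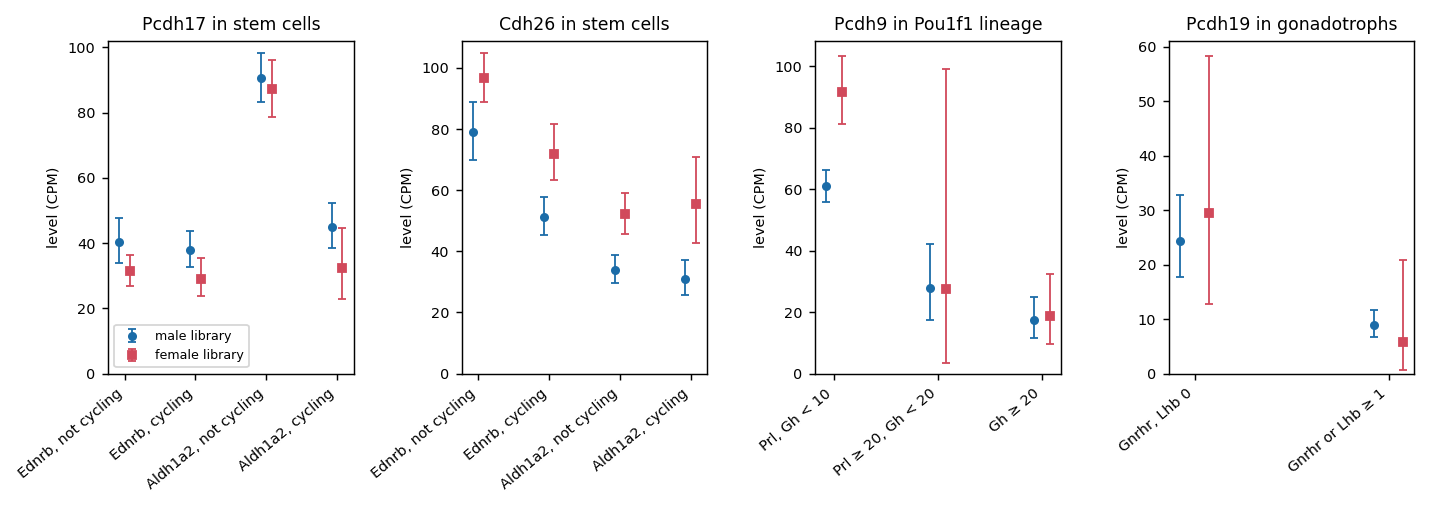
Level (CPM, linear axes from 0) of Pcdh17 and Cdh26 in stem cells by Ednrb, Aldh1a2 and cycle genes, of Pcdh9 in the Pou1f1 lineage by hormone UMIs and of Pcdh19 in gonadotrophs by Gnrhr and Lhb, with exact Poisson 95% intervals, in the male (blue circles) and female (red squares) library. Pcdh17 is highest in Aldh1a2-positive cells without cycle genes, at 90.5 and 87.1 CPM, and Pcdh9 in Pou1f1-lineage cells with little hormone RNA, at 60.9 and 91.8.

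In gonadotrophs, *Pcdh19* and *Pcdh18* were lower than in differentiating cells. *Pcdh19* stood at 12.6 CPM in male and 16.2 in female gonadotrophs (-1.87 ± 0.17 against differentiating cells, adjusted p = 6.19e-07), and *Pcdh18* at 1.86 and 3.24 (-3.70 ± 0.26, adjusted p = 2.83e-08). *Pcdh7* was higher than in differentiating cells, at 27.8 and 17.8 CPM against 9.22 and 13.7 (1.24 ± 0.22, adjusted p = 2.96e-04). In the female library, with 39 gonadotrophs, the values differed by less than 2-fold. With looser gates the change was 0.83 and the call was lost. *Cdh26* was not called (5.46 and 1.62 CPM, the latter from 1 UMI; -0.34 ± 0.36, adjusted p = 0.505). *Cdh1* was lower, at 7.06 and 6.48 CPM (-1.19 ± 0.27, adjusted p = 2.15e-03), with a change of -0.99 under stricter gates that missed the 2-fold limit. *Cdh2* was at 63.6 and 97.2 CPM (-0.56 ± 0.13), under 2-fold.

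*Pcdh19* varied within the class. Gonadotrophs without a UMI of *Gnrhr* or *Lhb* (119 male, 18 female) had 24.4 and 29.6 CPM of *Pcdh19*, whereas those with at least 1 (334 and 21) had 8.93 and 5.77. The female values rest on 39 cells and their intervals overlap. Across all members, 3 were higher and 7 lower in gonadotrophs than in differentiating cells, where 9.55% of all genes were higher and 6.31% lower. The median log2 change was -0.56 over the 21 members with at least 20 UMIs in both classes together and -0.02 over all such genes. Besides the genes named above, *Pcdh1* and *Cdh15* were higher and *Pcdh10*, *Cdh4*, *Cdh22* and *Pcdh20* lower. The calls of *Cdh15* and *Pcdh20* each failed under at least 1 alternative, and with stricter gates *Pcdh10* did not have the same direction in both libraries.

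The Pou1f1 lineage, which gives rise to somatotrophs, lactotrophs and thyrotrophs, had the highest level of *Pcdh9*, a δ-1 protocadherin, of the 6 classes in both libraries. The level was 52.4 CPM in male and 77.1 in female cells of the lineage, against 12.1 and 17.9 in differentiating cells (1.96 ± 0.14, adjusted p = 4.62e-08). After thinning, 20.8% of male and 23.2% of female cells of the lineage had a *Pcdh9* UMI, against 6.02% and 7.63% of differentiating cells. The type II cadherin *Cdh12* was at 12.8 and 12.1 CPM in the lineage and 2.08 and 1.96 in differentiating cells (2.46 ± 0.31, adjusted p = 1.46e-05). *Pcdh18* (5.48 and 4.46 CPM; -2.30 ± 0.17, adjusted p = 6.15e-08) and *Pcdh19* (21.6 and 18.1 CPM; -1.20 ± 0.13, adjusted p = 4.53e-06) were lower. With looser gates the change of *Pcdh19* was -0.78, under 2-fold. In all, 8 members were higher and 4 lower, where 11.2% of all genes were higher and 4.86% lower (median log2 change 0.15 over 25 members with at least 20 UMIs in the classes compared, 0.00 over all such genes). The other 6 higher members were *Cdh7*, *Cdh8*, *Cdh10*, *Pcdh1*, *Pcdh8* and *Pcdh20*, none above 6.82 CPM in the lineage. Of these, *Cdh7*, *Cdh8* and *Pcdh20* passed the filter on low counts only through the lineage, so that their direction was fixed by the filter. The other 2 lower members were *Cdh22* and *Pcdh10*. The calls of *Pcdh10* and *Pcdh20* were lost with DESeq2 (adjusted p = 0.101 and 0.141), and the change of *Pcdh10* was under 2-fold without TMM factors (-0.97) and with looser gates (-0.79).

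*Pcdh9* varied with hormone content inside the lineage. Cells with fewer than 10 UMIs of both *Prl* and *Gh* (593 male, 230 female) had 60.9 and 91.8 CPM, and cells with 20 or more *Gh* UMIs (72 and 34) had 17.4 and 18.6. *Gh* alone took 14.1% and 21.5% of the UMIs of the latter. With 4 hormone genes left out of the totals, an alternative added after the values were seen, the latter had 20.3 and 23.9 CPM, so that the difference remained.

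Gonadotrophs and Pou1f1-lineage cells, set against each other, differed in 8 members. *Pcdh7* was higher in gonadotrophs, at 27.8 and 17.8 CPM against 12.1 and 12.6 (1.19 ± 0.21, adjusted p = 7.64e-04). The female values differed by less than 2-fold, and under looser gates a change of 0.72 missed the 2-fold limit. The 7 lower members included *Pcdh9* (-1.28 ± 0.16, adjusted p = 3.12e-05) and *Cdh12* (-3.29 ± 0.43, adjusted p = 4.23e-05). *Cdh12* had 1.46 CPM in male gonadotrophs and no UMI in the 39 female ones, where 3 counts would be 4.86 CPM. *Cdh4*, *Cdh7*, *Pcdh15*, *Pcdh18* and *Pcdh20* were the others, and the call of *Pcdh15* was lost without the library term (adjusted p = 0.0555). The 1 higher and 7 lower members compare with 4.86% and 6.23% of all genes, and the median log2 change was -0.93 over 25 members with at least 20 UMIs in the classes compared and 0.00 over all such genes. *Cdh7* and *Pcdh20* passed the filter on low counts only through the lineage.

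**Figure D4:**
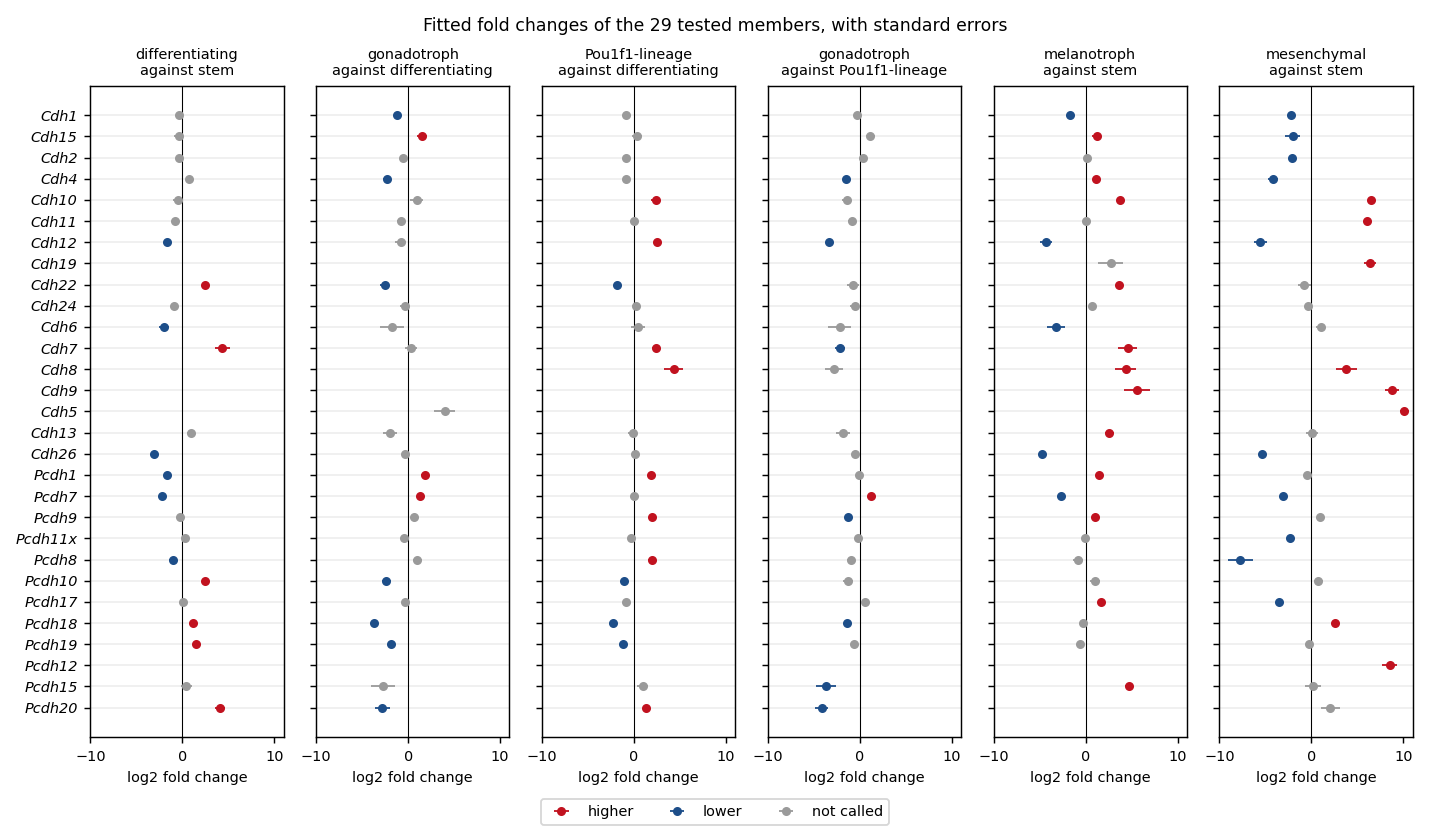
Fitted log2 fold change (points) with standard error (bars) of the 29 tested members in 6 comparisons, in red where called higher, blue where called lower and grey where not called. Of 174 points, 21 with a standard error over 1.5 are left out, and values of members at or near 0 UMIs in a class, such as Cdh5 in stem cells, depend on the prior count and are no test where the member passed the filter through 1 class only. Cdh26 and Pcdh7 are lower in differentiating, melanotroph and mesenchymal than in stem cells.

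Melanotrophs, which produce melanotroph-stimulating hormone in the intermediate lobe, had the highest *Pcdh17*. The level was 114 CPM in male and 193 in female melanotrophs, against 57.5 and 47.7 in stem cells (1.70 ± 0.16, adjusted p = 2.69e-07). After thinning, 39.1% and 55.8% of melanotrophs had a *Pcdh17* UMI, against 23.0% and 16.9% of stem cells. *Pomc* took 25.2% of the UMIs of male and 12.9% of female melanotrophs, and without the 4 hormone genes *Pcdh17* was at 153 and 221 CPM. *Cdh2* was not called against stem cells (100 and 138 CPM; 0.12 ± 0.11, adjusted p = 0.384). Without the 4 hormone genes its level was 134 and 159 CPM in melanotrophs, beside 108 and 149 in stem cells, a difference that was not tested. The stem members *Cdh26* (2.02 and 0.947 CPM; -4.77 ± 0.34, adjusted p = 6.99e-09) and *Pcdh7* (5.24 and 10.4 CPM; -2.70 ± 0.23, adjusted p = 5.78e-08) were lower.

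Several members that were under 3 CPM in stem cells were higher in melanotrophs. *Pcdh15*, a protocadherin known from the tip links of hair cells, was at 13.7 and 11.8 CPM, against 0.666 and 0.425 in stem cells, and passed the filter on low counts only through melanotrophs, so that its direction was fixed and no test is given. *Cdh22*, a type II cadherin, was at 8.07 and 12.3 CPM (3.68 ± 0.36, adjusted p = 3.04e-07), and *Cdh10* at 8.87 and 6.16 (3.77 ± 0.34, adjusted p = 1.25e-07). *Cdh13*, a cadherin held by a lipid anchor, was at 15.5 CPM in the male but 3.31 in the female library. Male melanotrophs also had UMIs of all 6 mesenchymal markers (sum 21.0 CPM, *Tcf21* the most abundant at 6.25), and female melanotrophs had 1 of 6 (*Tcf21*, 0.474 CPM), and their part in the levels of *Cdh10* and *Cdh13* was not tested. *Cdh1*, *Cdh6* and *Cdh12* were lower, and *Cdh7*, *Cdh8*, *Cdh9* and *Pcdh1* higher. In total 12 members were higher and 5 lower in melanotrophs than in stem cells, beside 14.8% and 16% of all genes, with a median log2 change of 0.40 over 22 members with at least 20 UMIs in the classes compared and -0.04 over all such genes. The calls of *Pcdh9* (1.01 ± 0.16), *Cdh4* and *Cdh15* failed without TMM factors, with changes of 0.77, 0.87 and 0.93. That of *Pcdh9* also fell just under 2-fold without the filter on low counts (0.93), with only the 2 classes in the fit (0.99), with stricter or looser gates (0.98 in both) and without the library term (0.999). That of *Cdh4* failed with stricter gates (0.90), and that of *Cdh15* missed the p threshold with DESeq2 (adjusted p = 0.111), with no minimum of UMIs per cell (adjusted p = 0.0551), without Scrublet-marked cells (adjusted p = 0.0615) and without the library term (adjusted p = 0.0619).

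Mesenchymal cells, which neither the sort nor the label of the samples names, had the highest levels of 4 described members. Of these, *Pcdh18* was also higher in differentiating than in stem cells, and *Cdh10* in melanotrophs. *Cdh11* (OB-cadherin), a type II cadherin of mesenchyme, was at 518 CPM in male and 555 in female cells, against 8.36 and 9.16 in stem cells (5.996 ± 0.15, adjusted p = 4.01e-14). After thinning, 83.0% and 80.9% of mesenchymal cells had a UMI, against 3.66% and 4.14% of stem cells. *Cdh10* was at 55.1 and 60.8 CPM, against 0.740 and 0.614 in stem cells (6.43 ± 0.24, adjusted p = 1.98e-12), and *Pcdh18* at 59.5 and 57.4 (2.53 ± 0.13, adjusted p = 6.82e-11). *Cdh2* was lower, at 26.5 and 27.3 CPM (-2.16 ± 0.13, adjusted p = 7.91e-10), and *Pcdh17* at 4.74 and 3.47 (-3.53 ± 0.30, adjusted p = 4.71e-08). In all, 8 members were higher and 10 lower, where 14% and 16.5% of all genes were called, and the median log2 change was -0.30 over 26 members with at least 20 UMIs in the classes compared and -0.02 over all such genes. The other higher members were *Cdh5*, *Cdh8*, *Cdh9*, *Cdh19* and *Pcdh12*, each with no UMI in female and at most 3 in male stem cells. *Cdh5*, *Cdh9*, *Cdh19* and *Pcdh12* passed the filter on low counts only through mesenchymal cells and had to differ there, which leaves 14 of the 18 called members. The other lower members were *Cdh1*, *Cdh4*, *Cdh12*, *Cdh15*, *Cdh26*, *Pcdh7*, *Pcdh8* and *Pcdh11x*. The call of *Cdh15* was lost with DESeq2 (adjusted p = 0.0907) and with stricter gates (adjusted p = 0.0776).

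*Cdh5* (VE-cadherin), the cadherin of endothelial junctions, was also highest in this class. It had 157 UMIs in male and 117 in female mesenchymal cells (29.7 and 45.1 CPM) and 1 and 0 in stem cells, where the fitted fold depends on the prior count and is not given. The 62 male and 49 female mesenchymal cells with a *Cdh5* UMI had no UMI of *Pecam1* or *Cldn5*, defining endothelial genes, and *Kdr* was found in 2 male cells among them and in 0 female ones. These 3 genes were near 0 in the rest of the class as well, with *Pecam1* in 2 of 527 male and 2 of 255 female cells, *Cldn5* in 2 and 3, and *Kdr* in 12 and 6. All 62 male cells and 48 of the 49 female cells had *Cdh11*. *Cdh11* was higher in the *Cdh5*-positive cells than in the rest of the class, at 791 and 742 CPM against 469 and 497. In contrast, *Tcf21* was at 340 and 267 CPM against 751 and 662, *Pdgfra* at 175 and 293 against 404 and 510, and *Pdgfrb* at 42.9 and 85.2 against 275 and 231. The markers *Lum*, *Postn* and *Fn1* were not compared. The *Cdh5*-positive cells were deeper than the rest of the class, with medians of 12446.5 and 12026 UMIs against 7651 and 7397. *Emcn*, the most abundant of 4 endothelial markers in the class (200 and 213 CPM, of list sums of 203 and 217), was lower in the *Cdh5*-positive cells (95.6 and 107 CPM) than in the rest (219 and 245). The pericyte genes *Rgs5* and *Kcnj8* were at 106 and 45.1 and at 58.3 and 27.0 CPM in the class, with 1 *Rgs5* UMI and no *Kcnj8* UMI in the *Cdh5*-positive cells of each library. *Tcf21*-negative mesenchymal cells (86 male, 24 female) had 89.8 and 70.2 CPM of *Cdh5* and 13.7 and 28.1 of *Cdh10*, whereas *Tcf21*-positive cells had 21.2 and 42.8 of *Cdh5* and 61.0 and 63.8 of *Cdh10*. For both genes the counting intervals of *Tcf21*-negative and *Tcf21*-positive cells overlapped in the female library. *Cdh19*, known from Schwann cells and their precursors, was at 5.87 and 6.55 CPM, with *Sox10* at 0 in both libraries.

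Among partner genes, a minority of the 13 catenins and linkers was called in each comparison. *Ctnna2*, the α-catenin of neurons, was at 0.777 and 0.614 CPM in stem cells, 7.04 and 5.88 in differentiating cells (3.22 ± 0.31, adjusted p = 2.92e-07) and 19.3 and 30.8 in gonadotrophs (1.50 ± 0.26 against differentiating cells, adjusted p = 2.40e-04). *Ctnna1*, the epithelial α-catenin, was at 211 and 236 CPM in stem cells and 50.8 and 63.0 in melanotrophs (-1.75 ± 0.10, adjusted p = 4.66e-10). Of the 13, 2 were higher and 3 lower in differentiating than in stem cells (all genes, 7.36% and 15.3%), 2 and 3 in melanotrophs (14.8% and 16%) and 2 and 4 in mesenchymal cells (14% and 16.5%). Against differentiating cells, 2 were higher and 0 lower in gonadotrophs (9.55% and 6.31%), and 2 and 1 in the Pou1f1 lineage (11.2% and 4.86%). Both *Ctnna2* and *Pkp1*, a plakophilin, were the higher ones in differentiating cells. The 4 tested desmosomal genes (*Dsc2*, *Dsc3*, *Dsg2* and *Dsp*) were all lower in mesenchymal than in stem cells (all genes, 16.5%), and none was called in differentiating cells. In melanotrophs *Dsc2*, *Dsc3* and *Dsg2* were lower and *Dsp* higher than in stem cells (16% and 14.8%). Against differentiating cells, *Dsc3* was lower and *Dsp* higher in gonadotrophs (6.31% and 9.55%), and *Dsc3* was lower in the Pou1f1 lineage (4.86%).

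Of the transcription factors known to bind cadherin promoters, *Zeb1* had its lowest level in stem cells, at 1.11 and 1.04 CPM. It was 11.3 and 9.79 in differentiating cells (3.32 ± 0.24, adjusted p = 1.18e-08), 25.6 and 45.0 in melanotrophs and 56.8 and 55.1 in mesenchymal cells. Of the 6 factors, *Snai1*, *Zeb1* and *Zeb2* were higher and *Twist2* lower in differentiating than in stem cells (all genes, 7.36% and 15.3%), and *Cdh1* was not called. The part of these factors in the level of *Cdh1* was not tested. In mesenchymal cells all 6 factors were higher (all genes, 14%) and *Cdh1* was lower (4.92 and 2.70 CPM; -2.18 ± 0.27, adjusted p = 3.27e-06). In melanotrophs *Snai2* and *Zeb1* were higher and *Zeb2* lower than in stem cells (all genes, 14.8% and 16%), and *Cdh1* was lower (3.63 and 8.52 CPM; -1.66 ± 0.27, adjusted p = 6.27e-05). In gonadotrophs *Cdh1* was lower than in differentiating cells (-1.19), while *Snai1* and *Zeb2* were lower and no factor was higher (all genes, 6.31% lower and 9.55% higher). In the Pou1f1 lineage *Snai1* was lower than in differentiating cells (all genes, 4.86%) and *Cdh1* was not called (-0.91 ± 0.21, under 2-fold). The clustered protocadherins, summed over genes, also differed between classes. The α cluster (14 genes) was at 4.74 and 3.97 CPM in stem cells, 14.6 and 10.8 in differentiating cells, 17.5 and 18.0 in melanotrophs and 0.758 and 0.770 in mesenchymal cells. The γ cluster (21 genes) was at 27.2 and 30.4 CPM in stem cells and 54.0 and 52.0 in mesenchymal cells, and so did not share the low α level there.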

How the data were processed

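The authors aligned the reads with Cell Ranger 3.0.2 and STAR 2.5.1b to mm10 with eGFP added, and deposited raw UMI counts per gene and cell, unnormalized. The methods name v2 chemistry and the labels both v2 and v3. Cells with under 50 genes, with a mitochondrial share over the mean plus 3 SD, or with under 2000 UMIs were left out. Doublets were kept, and removal of Scrublet-marked cells (867 male, 261 female; scanpy 1.11.5) was an alternative. Cells meeting the gates of more than 1 class (63 male, 10 female) entered none.

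Sums of 6 classes in 2 libraries (12 in all) were fitted in edgeR 4.0.16 (R 4.3.3) by quasi-likelihood with class and library terms, TMM factors and filterByExpr, with Benjamini-Hochberg adjustment over all genes. The 2 libraries differ in sex and serve as the replicates. The library term takes out their overall difference. The p-values thus measure how far class differences vary between the 2 libraries, with the spread of each gene estimated over all 12 sums (5 residual degrees of freedom). The SE of a fold change was derived from the F statistic of this fit. CPM intervals are exact Poisson and share intervals Clopper-Pearson at 95%, and both cover counting error only. Shares used cells thinned to 5000 UMIs (seed 1). On simulated data of gonadotroph against differentiating cells (14486 genes), 47% of 2-fold and 100% of 4-fold changes were recovered. The changed genes were drawn only from those above a minimum mean level, so these shares do not hold for members at low levels. A call also needed an estimate of at least 2-fold, which by itself limits the recovery of true 2-fold changes. Members with at least 20 CPM in a class in both libraries were described. The minimum of 20 UMIs behind the medians was chosen after the values were seen. The members and lists were chosen with earlier results of these data known.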

Additional observations from a re-analysis of the deposited data

Results flagged for a closer look

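For 6 pairs of a comparison and a member, among the 10 described members only, the male and female libraries differed in opposite directions, on a log2 scale of CPM plus 1. These differences between the libraries were not tested, and sex and library cannot be told apart. *Pcdh17* was lower in differentiating than in stem cells in the male library (-0.18) and higher in the female library (0.32), and lower in gonadotrophs than in differentiating cells in the male library (-0.33) and higher in the female (0.15). *Cdh26* (0.50 male, -0.30 female) and *Pcdh7* (0.36 and -0.11) did so between Pou1f1-lineage and differentiating cells, with overlapping counting intervals in both libraries. *Cdh11* in melanotrophs against stem cells was 0.16 in the male library and -1.40 in the female, where melanotrophs had 6 UMIs. *Cdh10* in gonadotrophs against differentiating cells was 0.47 and -0.51, with no UMI in female gonadotrophs. None of these 6 changes was called.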

How the results depend on the processing

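The counts of called members stayed within 1.5 times those reported under each alternative run (no TMM factors, DESeq2, no filter on low counts, only the 2 classes compared, other UMI minima, Scrublet-marked cells left out, stricter and looser gates, and, added after the values were seen, no library term). They ranged from 11 to 14 for differentiating against stem cells, 7 to 11 for gonadotrophs and 10 to 13 for the Pou1f1 lineage against differentiating cells, 7 to 10 for gonadotrophs against the Pou1f1 lineage, 14 to 17 for melanotrophs and 16 to 19 for mesenchymal cells against stem cells. With 1 library left out, where only the 2-fold limit could be applied, they ranged from 10 to 11, 11 to 14, 11 to 13, 12 to 12, 12 to 15 and 17 to 17. Pairs lost with 1 library left out are not part of the next counts. Of 77 called pairs of a member and a comparison, 61 were called under every alternative that kept both libraries and tested the member, and 0 reversed. The other 16 were not called under at least 1 of these alternatives. Of them, 15 missed the p or fold threshold, and 1, *Pcdh10* in gonadotrophs, only the same direction in both libraries. The cause of those 16 was not tested. The 77 pairs include some whose member passed the filter on low counts through 1 class only. These were 3 for the Pou1f1 lineage against differentiating cells and 2 for gonadotrophs against the lineage. Against stem cells there was 1 for melanotrophs and 4 for mesenchymal cells. Their direction was fixed by the filter, so the absence of a reversal is no result for them. Of 120 levels of described members, 17 moved outside their counting interval with looser gates, 12 with stricter gates, 10 without Scrublet-marked cells and 6 without hormone genes in the totals. Over all 29 tested members, including those at or near 0 UMIs in both classes, the median log2 changes in the same order of comparisons were -0.02, -0.38, 0.19, -0.93, 1.01 and -0.26.

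Depth limits the female gonadotrophs most: with 39 cells, 3 counts stand for 4.86 CPM. Each comparison was made within the 2 libraries, with the library as a term of the fit. Without this replicate block, 12, 10, 12, 7, 15 and 17 members were called in the 6 comparisons in the order above, and the calls lost were those of *Pcdh15* between gonadotrophs and the Pou1f1 lineage (adjusted p = 0.0555), *Cdh15* (adjusted p = 0.0619) and *Pcdh9* (a change of 0.999) in melanotrophs, and *Cdh15* in mesenchymal cells (adjusted p = 0.0617).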

Other observations

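In the cells that met no gate (3287 male, 2515 female), *Cdh26* was at 24.3 and 47.3, *Pcdh7* at 27.2 and 44.2, *Pcdh19* at 26.1 and 22.5 and *Pcdh18* at 13.5 and 12.2 CPM, and no described member was above its highest class. The β cluster of clustered protocadherins (22 genes) was at 42.2 and 50.8 CPM in stem cells and 93.9 and 105 in male and female gonadotrophs.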
